A study of Mus musculus with 16 samples.

Results

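Antibodies against the kinase mTOR, ribosomal protein S6 and the translation factor named EIF2A were followed through 16 mouse liver samples by reverse-phase protein array. In that assay the lysate of every tissue is printed on a chip, and 1 antibody at a time is read across all lysates as a fluorescence signal. The members were the antibody rows whose protein symbol (the name without its suffix) is MTOR, RPS6 or EIF2A, and they made up 8 of the 158 antibody rows. They comprised 3 MTOR rows (the total protein and the sites S2448 and S2481), 3 RPS6 rows (the totals RPS6_1 and RPS6_2 and the double site S235/S236) and 2 EIF2A rows (the total and the site S51). Dividing each site by a total of the same protein gave 5 of the 46 such pairs on the array.

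All samples came from male C3H/HeJ mice that, per the series' design text, had been injected once with diethylnitrosamine (DEN, a liver carcinogen), with 10 or 90 µg per g body weight at an age of 2 or 6 weeks. After 2 weeks without treatment, some mice ate a diet with 0.05% phenobarbital (PB, a barbiturate that promotes liver tumors in rodents) and others a diet without it, for 28 to 36 weeks. The PB arm gave 7 tumors with mutated Ctnnb1, the gene of beta-catenin, and 3 livers without a tumor (PB control livers), and the arm without PB gave 3 tumors with mutated Ha-ras, the gene of a GTPase upstream of MEK and ERK, and 3 livers without a tumor (control livers). The sample characteristics give 27 weeks of treatment and the sample protocols 28 days of PB in drinking water, and the DEN dose and age were not assigned to samples here. Each tumor genotype came from 1 arm, so genotype and PB cannot be told apart between the tumors. Separate animals are not stated for the samples, and the p-values therefore measure only how these samples spread, which may be technical.

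As background, mTOR is a serine/threonine kinase that couples growth factor and nutrient signals to protein synthesis and cell growth, and in liver it responds to insulin and feeding. S2448 is phosphorylated by S6 kinase and by Akt, and S2481 is an autophosphorylation site. Ribosomal protein S6 belongs to the small ribosomal subunit, and its S235/S236 site is phosphorylated both by the S6 kinase that mTOR activates (RPS6KB1) and by the RSK kinases that ERK activates (RPS6KA1 and RPS6KA3). The eIF2 complex carries the initiator tRNA to the ribosome, and stress kinases such as PERK phosphorylate its alpha subunit at S51, which lowers general translation. The name EIF2A is ambiguous: in the RefSeq table of mouse assembly GRCm38.p6 Eif2a is the symbol of 1 gene and a synonym of Eif2s1, the gene of the alpha subunit. The S51 row therefore bears the site of the Eif2s1 product, and the protein that the total EIF2A row reads was not settled here, so its ratio to the S51 row may set different proteins against each other.

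Signals are given relative to the median of the sample, that is, the intensity divided by the median intensity of the 155 antibodies positive in all samples (0.450 to 0.737 relative fluorescence units by sample). Because antibodies differ in affinity, a level is compared between samples and never between antibodies. Dim means under 2 times the matched blank, which is a spot set read with secondary antibody alone. EIF2A_P-S51 was dim in 15 of 16 samples (1.21 to 2.22 times the blank) and RPS6_2 in 6 of 16 (1.05 to 4.44 times), and the other 6 members were dim in no sample. The hepatocyte factor HNF4A read 3.15 to 3.53 in the Ha-ras tumors against 2.90 to 3.32 in the control livers. In the Ctnnb1 tumors it read 2.03 to 2.78, against 2.66 to 2.99 in the PB control livers. CYP2E1_2, against a cytochrome P450 of mature hepatocytes, read 3.28 to 4.70 in the Ha-ras tumors (dim in 1) against 16.8 to 38.2 in the control livers. CYP2E1_1 and CYP1A2_1 also read lower there without overlap. CYP3A4_1 was closer (6.96 to 7.17 against 7.87 to 10.3). CYP3A4_2 overlapped, as did CYP1A2_2 (0.721 to 0.873 against 0.747 to 0.863). Of the 12 markers listed for other liver cells, 0 had an antibody row. The part of the cell makeup in the results was not tested, and in these bulk lysates fewer cells of a type and less protein per cell cannot be told apart. With 3 samples in 3 of the groups, their number limits the precision.

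In the Ha-ras tumors, mTOR phosphorylated at S2448 was 1.79-fold higher than in control liver and EIF2A was 1.52-fold higher, and these were the members that rose. They were 2 of 8 member rows called higher at a limma adjusted p under 0.05, beside 10.1% of all 158 antibodies called higher (13.9% in either direction). The median log2 difference of the 8 members was 0.24, beside -0.00 over all antibodies. Phosphorylated S6 and total mTOR had positive differences that did not pass, and the autophosphorylation site of mTOR, both S6 totals and the S51 row did not pass either. In the Ctnnb1 tumors no member passed in limma against PB control liver, where 0% of all antibodies were called. At an unadjusted p under 0.05 there were 1 of 8 members (EIF2A) and 25 of 158 antibodies.

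**Figure D1:**
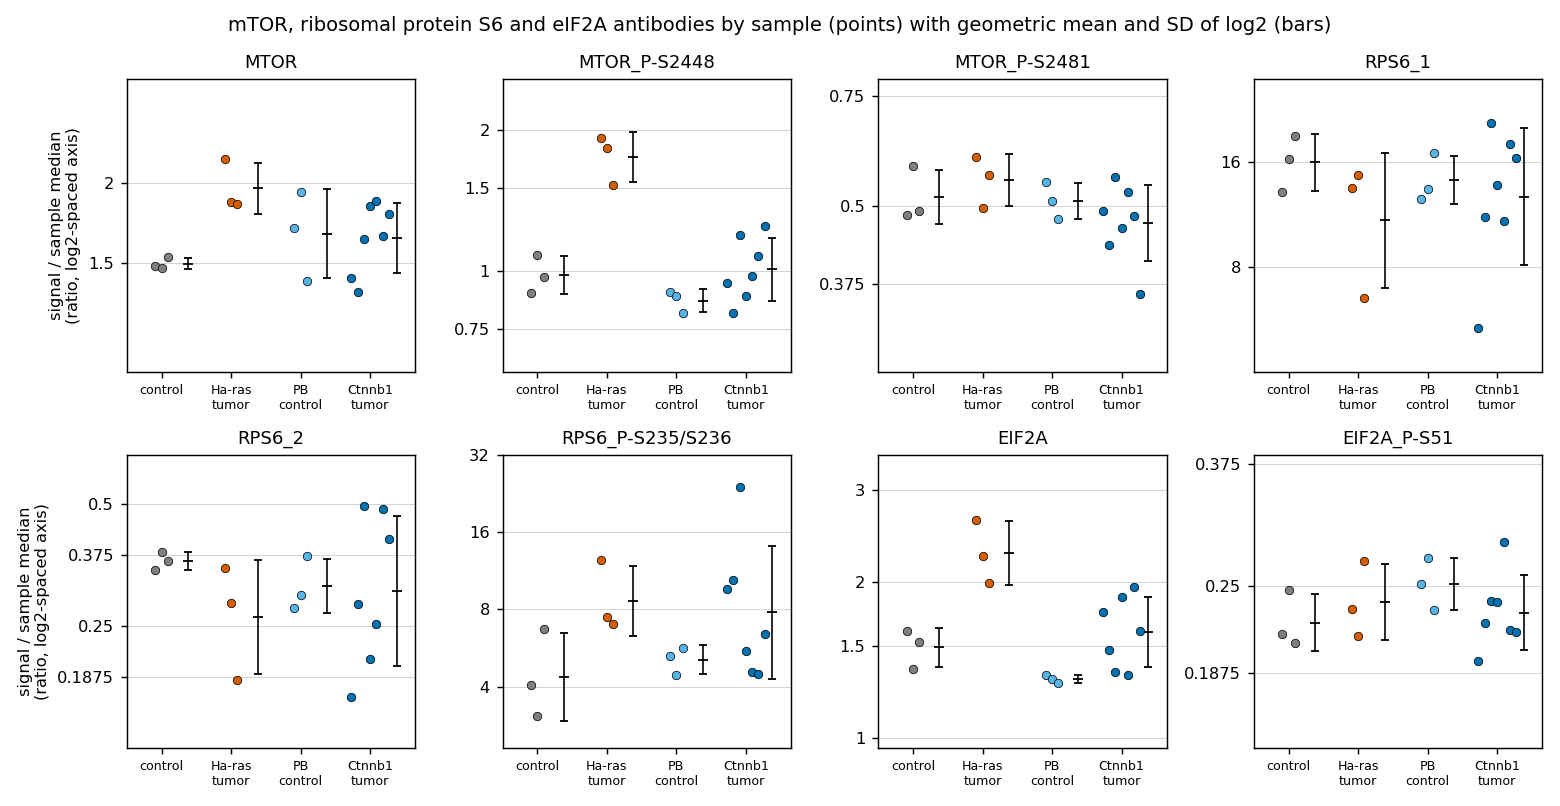
Signal of each of the 8 antibodies in each sample, as the ratio to the sample median on a log2-spaced axis, by group. Points are samples, and the bar beside each group gives the geometric mean with the SD of log2 signal (n = 3, 3, 3 and 7). The 3 Ha-ras tumors lie above all other samples for MTOR_P-S2448 (1.52 to 1.92) and for EIF2A (1.99 to 2.63), whereas the groups overlap for both S6 totals.

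Site S2448 of mTOR read 0.894, 1.08 and 0.972 in control livers 1 to 3 and 1.92, 1.83 and 1.52 in Ha-ras tumors 1 to 3. All 3 Ha-ras tumors thus lay above all 3 control livers. The log2 difference was 0.84 ± 0.15 (SE, n = 3 and 3; 95% confidence interval 0.51 to 1.17; limma adjusted p = 0.0024). It passed in every alternative tried, and leaving out any 1 of the 6 samples gave 0.77 to 0.94. Total mTOR read 1.49, 1.47 and 1.53 in the control livers and 2.18, 1.87 and 1.85 in the Ha-ras tumors, again without overlap, but its difference of 0.39 ± 0.14 (95% confidence interval 0.08 to 0.70, limma adjusted p = 0.101) did not pass. Total mTOR passed with the samples scaled to the array's Alexa647 reference rows (0.58, adjusted p = 0.0175) and from the authors' log2 table (0.61, adjusted p = 0.0207), settings that move the median difference of all antibodies up by 0.19 and 0.17.

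The autophosphorylation site S2481 read 0.484, 0.579 and 0.491 in the control livers and 0.598, 0.496 and 0.561 in the Ha-ras tumors. These groups overlapped, and the log2 difference was 0.09 ± 0.14 (95% confidence interval -0.21 to 0.40, limma adjusted p = 0.764). Divided by total mTOR, S2448 read 0.602, 0.734 and 0.635 in the control livers and 0.881, 0.978 and 0.823 in the Ha-ras tumors. The Ha-ras tumors were again all above the control livers, by 1.36-fold, but the ratio did not pass (log2 difference 0.45 ± 0.17, limma adjusted p = 0.0827 over 46 pairs), beside 8.7% of pairs called, and it passed only with quantile normalization (0.47, adjusted p = 0.0429). S2481 over total mTOR had a log2 difference of -0.30 ± 0.19 (adjusted p = 0.277). The ratio of S2448 to S2481, given as a description, was 1.85 to 1.98 in control livers, 2.72 to 3.68 in Ha-ras tumors, 1.65 to 1.74 in PB control livers and 1.85 to 3.44 in Ctnnb1 tumors.

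**Figure D2:**
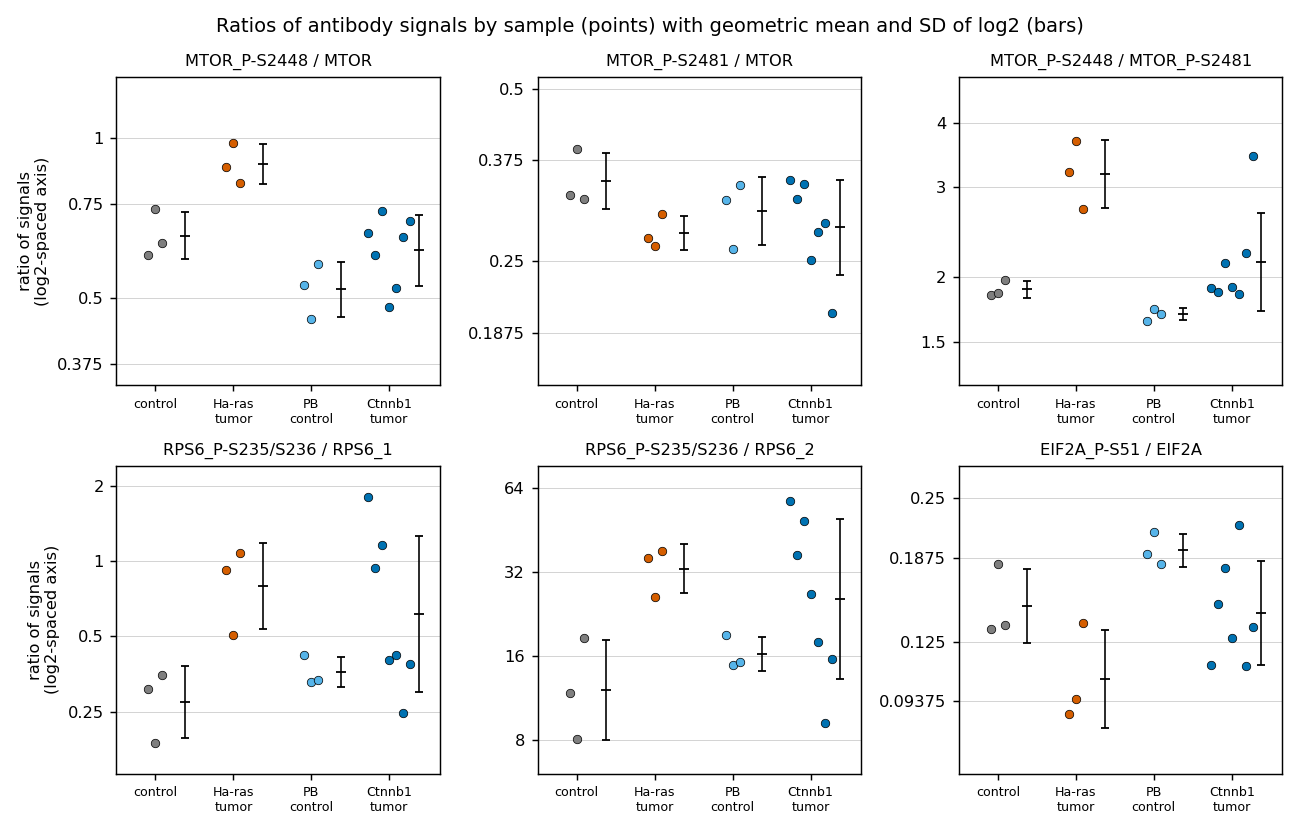
Ratios between antibody signals in each sample on a log2-spaced axis, by group, with the geometric mean and SD of log2 ratio as bars. The Ha-ras tumors lie above the control livers for MTOR_P-S2448 over MTOR (0.823 to 0.978 against 0.602 to 0.734) and for phosphorylated S6 over either S6 total, and the 7 Ctnnb1 tumors spread from 0.248 to 1.80 for phosphorylated S6 over RPS6_1.

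In the Ctnnb1 tumors, neither total mTOR nor its sites passed against PB control liver. Total mTOR read 1.70, 1.94 and 1.40 in PB control livers 4 to 6 and had a lowest, median and highest value of 1.35, 1.65 and 1.87 in the 7 tumors. The groups overlapped, and the log2 difference was -0.02 ± 0.12 (n = 7 and 3; 95% confidence interval -0.28 to 0.23; limma adjusted p = 0.911), with a sign that changed in several alternatives. S2448 read 0.899, 0.884 and 0.812 in the PB control livers and 0.814, 0.976 and 1.25 (lowest, median and highest) in the tumors, of which tumors 3 and 7 were the highest at 1.19 and 1.25. The difference of 0.22 ± 0.13 did not pass (95% confidence interval -0.06 to 0.50, limma adjusted p = 0.399), so a change of up to 1.41-fold stayed within the interval. S2481 read 0.477 to 0.545 in the PB control livers and 0.362 to 0.557 in the tumors, with tumor 7 the lowest, and its difference was -0.12 ± 0.12 (adjusted p = 0.555).

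Set against each other, the tumors differed in S2448. It was 1.74-fold lower in the Ctnnb1 than in the Ha-ras tumors (log2 difference -0.80 ± 0.13, n = 7 and 3, 95% confidence interval -1.08 to -0.52, limma adjusted p = 2.87e-04), with the highest Ctnnb1 tumor (1.25) below the lowest Ha-ras tumor (1.52). The site and EIF2A were the 2 members called lower there, beside 13.3% of all antibodies called lower (19% in either direction). Over total mTOR, S2448 was 1.45-fold lower (-0.54 ± 0.14, adjusted p = 0.0182), beside 15.2% of pairs called lower (19.6% in either direction), and this call was lost with these groups fitted alone (adjusted p = 0.0503) and without Ha-ras tumor 2 (-0.47, adjusted p = 0.0956). Total mTOR (-0.26 ± 0.12, adjusted p = 0.170) and S2481 (-0.23 ± 0.12, adjusted p = 0.251) did not pass. This comparison carries PB with the genotype. Measured from each arm's own control livers, the change in S2448 was smaller in the Ctnnb1 than in the Ha-ras tumors by 0.62 ± 0.20 on the log2 scale, a difference that did not pass (adjusted p = 0.0895), as no member did, beside 5.06% of antibodies and 4.35% of pairs called.

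Phosphorylated S6 had the widest range of the 8 members. Its S235/S236 site read 4.05, 3.08 and 6.69 in the control livers and 12.4, 7.45 and 7.02 in the Ha-ras tumors. Every Ha-ras tumor lay above every control liver, with control liver 3 close to the lowest tumor. The log2 difference of 0.99 ± 0.51 (1.98-fold, 95% confidence interval -0.10 to 2.08, limma adjusted p = 0.301) did not pass, and its interval spans no change up to a 4.22-fold rise. The 7 Ctnnb1 tumors read 9.63, 10.5, 24.1, 5.53, 4.56, 4.47 and 6.39 in the order of tumors 1 to 7, against 5.29, 4.42 and 5.68 in the PB control livers. Tumors 1, 2 and 3 were the high ones, tumor 3 the highest of all 16 samples, and tumors 4, 5 and 6 lay within the range of the PB control livers. The difference of 0.61 ± 0.43 (95% confidence interval -0.31 to 1.53, adjusted p = 0.444) did not pass, and without Ctnnb1 tumor 3 it was 0.34.

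The S6 totals read in a different pattern from the site. RPS6_1 read 13.1, 16.4 and 19.0 in the control livers and 13.4, 14.7 and 6.54 in the Ha-ras tumors, of which tumor 3 was the low one. The log2 difference was -0.55 ± 0.41 (limma adjusted p = 0.517), and -0.19 without Ha-ras tumor 3. In the PB control livers RPS6_1 read 12.6, 13.4 and 16.9, and in the Ctnnb1 tumors 5.34, 13.7 and 20.8 (lowest, median and highest), with tumor 1 the low one and tumor 3 the high one. The groups overlapped widely, with a difference of -0.16 ± 0.35 (adjusted p = 0.840). The second total antibody, RPS6_2, read 0.344 to 0.382 in the control livers, 0.185 to 0.347 in the Ha-ras tumors, 0.278 to 0.373 in the PB control livers and 0.167 to 0.495 in the Ctnnb1 tumors. It followed the first (Pearson's r = 0.88 over the 16 samples and 0.87 for deviations from the group means, both read on the same lysates), with differences of -0.46 ± 0.36 in the Ha-ras tumors (adjusted p = 0.555) and -0.04 ± 0.31 in the Ctnnb1 tumors (adjusted p = 0.948). RPS6_2 was dim in 3 Ctnnb1 tumors, 2 PB control livers and 1 Ha-ras tumor (tumor 3, at 1.05 times its blank). With blanks subtracted its difference was -1.64 in the Ha-ras tumors, not past the threshold, and 0.11, with the opposite sign, in the Ctnnb1 tumors.

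Relative to total S6, the site read higher in all 3 Ha-ras tumors than in any control liver, but the ratios did not pass. Over RPS6_1 the site read 0.309, 0.188 and 0.352 in the control livers and 0.925, 0.508 and 1.07 in the Ha-ras tumors. The log2 difference was 1.54 ± 0.59 (2.91-fold, 95% confidence interval 0.30 to 2.79, limma adjusted p = 0.0827 over 46 pairs). Over RPS6_2 it was 1.45 ± 0.54 (2.72-fold, adjusted p = 0.0827), and 2.73 on the log2 scale with blanks subtracted (adjusted p = 0.0691). Both passed in a fit of these 6 samples alone (adjusted p = 0.0229). Tumor 3, which had the lowest S6 total, had the highest of these ratios. In that tumor RPS6_2 read 1.05 times its blank and RPS6_1 2.74 times, the lowest of the 16 samples for each. It also had the most dim antibodies of any sample (43). The blank-subtracted value over RPS6_2 therefore rests partly on a signal barely above its blank. In the Ctnnb1 tumors 1 to 7 the site over RPS6_1 read 1.80, 0.938, 1.16, 0.403, 0.422, 0.248 and 0.389, against 0.421, 0.329 and 0.335 in the PB control livers. Tumors 1 to 3 were again above the rest, tumors 4 to 7 lay between 0.248 and 0.422, and the difference of 0.77 ± 0.49 did not pass (adjusted p = 0.751), beside 2.17% of pairs called. Between the tumor types it was -0.38 ± 0.49 (adjusted p = 0.565).

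EIF2A read 1.61, 1.36 and 1.53 in the control livers and 2.63, 2.24 and 1.99 in the Ha-ras tumors. The groups did not overlap, and the log2 difference was 0.60 ± 0.16 (95% confidence interval 0.27 to 0.93, limma adjusted p = 0.0144). The call was lost without control liver 2 (0.53, adjusted p = 0.0745) or without Ha-ras tumor 1 (0.50, adjusted p = 0.0730). EIF2A read 1.32, 1.30 and 1.27 in the PB control livers and 1.32, 1.60 and 1.95 (lowest, median and highest) in the Ctnnb1 tumors, the lowest of which lay just above the highest PB control liver. That difference of 0.30 ± 0.13 (1.23-fold, 95% confidence interval 0.02 to 0.58) did not pass after adjustment (adjusted p = 0.292). EIF2A was 1.42-fold lower in the Ctnnb1 than in the Ha-ras tumors (-0.51 ± 0.13, adjusted p = 0.0108). This call was lost with Alexa647 scaling (-0.33, adjusted p = 0.157), with no scaling (-0.24, adjusted p = 0.275), settings that move the median of all antibodies by 0.17 and 0.27, and without Ha-ras tumor 1 (-0.40, adjusted p = 0.0767). The change in EIF2A from each arm's controls did not pass between the tumor types (-0.30 ± 0.20, adjusted p = 0.506).

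The S51 row stayed close to its blank, so little can be read from it. It read 0.214, 0.247 and 0.207 in the control livers, 0.232, 0.212 and 0.272 in the Ha-ras tumors, 0.252, 0.275 and 0.231 in the PB control livers and 0.195 to 0.290 in the Ctnnb1 tumors. All 4 groups overlapped. The log2 difference was 0.10 ± 0.14 in the Ha-ras tumors (limma adjusted p = 0.755), against 0.77 from the authors' normalised values with limma adjusted p = 0.219, and -0.14 ± 0.12 in the Ctnnb1 tumors (adjusted p = 0.482). Over the EIF2A row it was -0.51 ± 0.25 in the Ha-ras tumors (adjusted p = 0.161) and -0.07 in the authors' value table, which has the blanks subtracted, and -0.44 ± 0.21 in the Ctnnb1 tumors (adjusted p = 0.751). The kinase PERK (EIF2AK3), the 1 antibody measured from the stress response list around eIF2, had a log2 difference of 0.15 ± 0.10 in the Ha-ras tumors (adjusted p = 0.421).

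**Figure D3:**
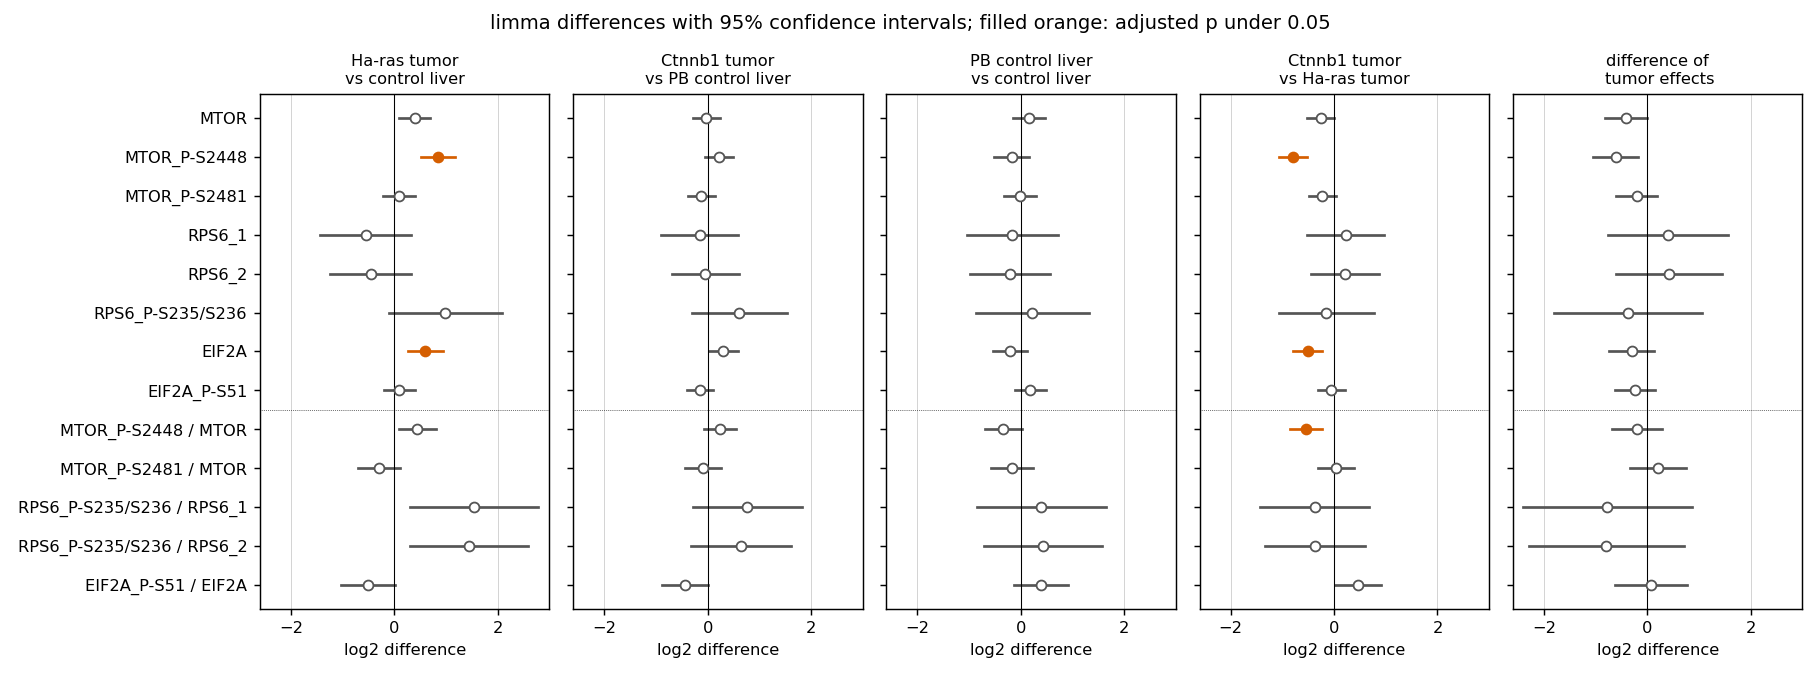
Log2 differences of the 8 antibodies and the 5 site-to-total ratios in each comparison, with 95% confidence intervals from limma; filled orange points have an adjusted p under 0.05. MTOR_P-S2448 (0.84) and EIF2A (0.60) are filled for Ha-ras tumors against control liver. No point is filled for Ctnnb1 tumors against PB control liver or for PB control liver against control liver. MTOR_P-S2448, EIF2A and MTOR_P-S2448 over MTOR are filled between the tumor types.

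PB control livers were set against control livers to compare the arms in liver outside tumors. The DEN dose and age were not assigned to samples, so the arms may differ in more than PB. Of the 8 members 0 passed in limma, and 0 had an unadjusted p under 0.05, beside 1.90% of all antibodies called and 14 antibodies with an unadjusted p under 0.05. The log2 differences were 0.16 ± 0.14 for total mTOR, -0.18 ± 0.15 for S2448, -0.02 ± 0.14 for S2481, 0.22 ± 0.51 for phosphorylated S6, -0.20 ± 0.16 for EIF2A and 0.19 ± 0.14 for S51. For phosphorylated S6 the 95% confidence interval ran from -0.87 to 1.31, which holds a rise of up to 2.49-fold. S2448 over total mTOR, with 0.528, 0.456 and 0.578 in the PB control livers, all below the control livers, had the smallest p of the 5 ratios (-0.34 ± 0.17, adjusted p = 0.527), beside 0% of pairs called.

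The antibodies around mTOR and S6 were grouped in lists by role, and their calls stand beside 10.1% of all 158 antibodies called higher in the Ha-ras tumors. Of 14 rows from receptors to Akt, 1 rose in the Ha-ras tumors (list median -0.07), PDK1_P-S241, the activation loop of a kinase named PDK1 on the array (1.30-fold, limma adjusted p = 0.0144). Among 4 rows of Akt and AMPK neighbours, 2 rose (median 0.45): GSK3B_P-S9, the inhibitory site that Akt and RSK phosphorylate (2.40-fold, adjusted p = 0.00965), and total GSK3B (1.31-fold, adjusted p = 0.0297). GSK3B_P-S9 was dim in 5 of 16 samples (1 control liver, 2 PB control livers and 2 Ctnnb1 tumors, at 1.47 times its blank or more), so its folds include signal near the blank. Akt's own activating site, AKT1_P-S473, had a log2 difference of -0.18 ± 0.18 (adjusted p = 0.698). Of 6 rows of S6 kinases, 2 rose (median 0.54), both on RSK kinases: RPS6KA1_P-T573, which read 2.40 to 2.89 in control livers and 4.90 to 5.46 in Ha-ras tumors, and RPS6KA3_P-T353/T356, which read 0.470 to 0.559 and 0.733 to 1.11. Of 8 rows of the ERK cascade, 2 rose (median 0.046), MAPK3_P-T202/Y204 (4.02-fold) and MAP2K1_P-S217/S221 (1.71-fold). No row of any list was called lower in the Ha-ras tumors, and the rows without a call had differences of either sign.

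The kinase that links mTOR to S6 directly gave no call. Total RPS6KB1 had a log2 difference of -0.14 ± 0.19 in the Ha-ras tumors (limma adjusted p = 0.755). Its mTOR site, RPS6KB1_P-T389, had one of 0.54 ± 0.36 (adjusted p = 0.446) and read 0.843 to 1.38 times its blank, so it was dim in 16 of 16 samples. No row of the lists passed in the Ctnnb1 tumors against PB control liver or in PB control liver against control liver. Between the tumor types 8 of the 33 rows were lower in the Ctnnb1 tumors and 0 higher, beside 13.3% of all antibodies called lower. They were PRKAA1_P-T172, the activating site of AMPK, which restrains mTOR (2.27-fold lower), GSK3B_P-S9 (1.97-fold), MAPK3_P-T202/Y204 (4.71-fold), MAP2K1_P-S217/S221 (1.95-fold), PDK1_P-S241 (1.35-fold) and 3 of 6 S6 kinase rows, RPS6KA1_P-T573, RPS6KA3_P-T353/T356 and RPS6KA1_P-S380 (2.14-fold, 2.08-fold and 1.86-fold lower). In the change from each arm's own controls 5 of the 33 rows passed, beside 5.06% of all antibodies. These rows were MAPK3_P-T202/Y204 (-2.02 ± 0.31), MAP2K1_P-S217/S221 (-1.06 ± 0.23), PDK1_P-S241 (-0.48 ± 0.13), RPS6KA1_P-T573 (-0.92 ± 0.17, adjusted p = 0.00694) and RPS6KA3_P-T353/T356 (-1.04 ± 0.22, adjusted p = 0.0105). The RSK site row RPS6KA1_P-S380 did not pass there (-0.86 ± 0.32, limma adjusted p = 0.146), and no mTOR, S6 or EIF2A row passed.

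**Figure D4:**
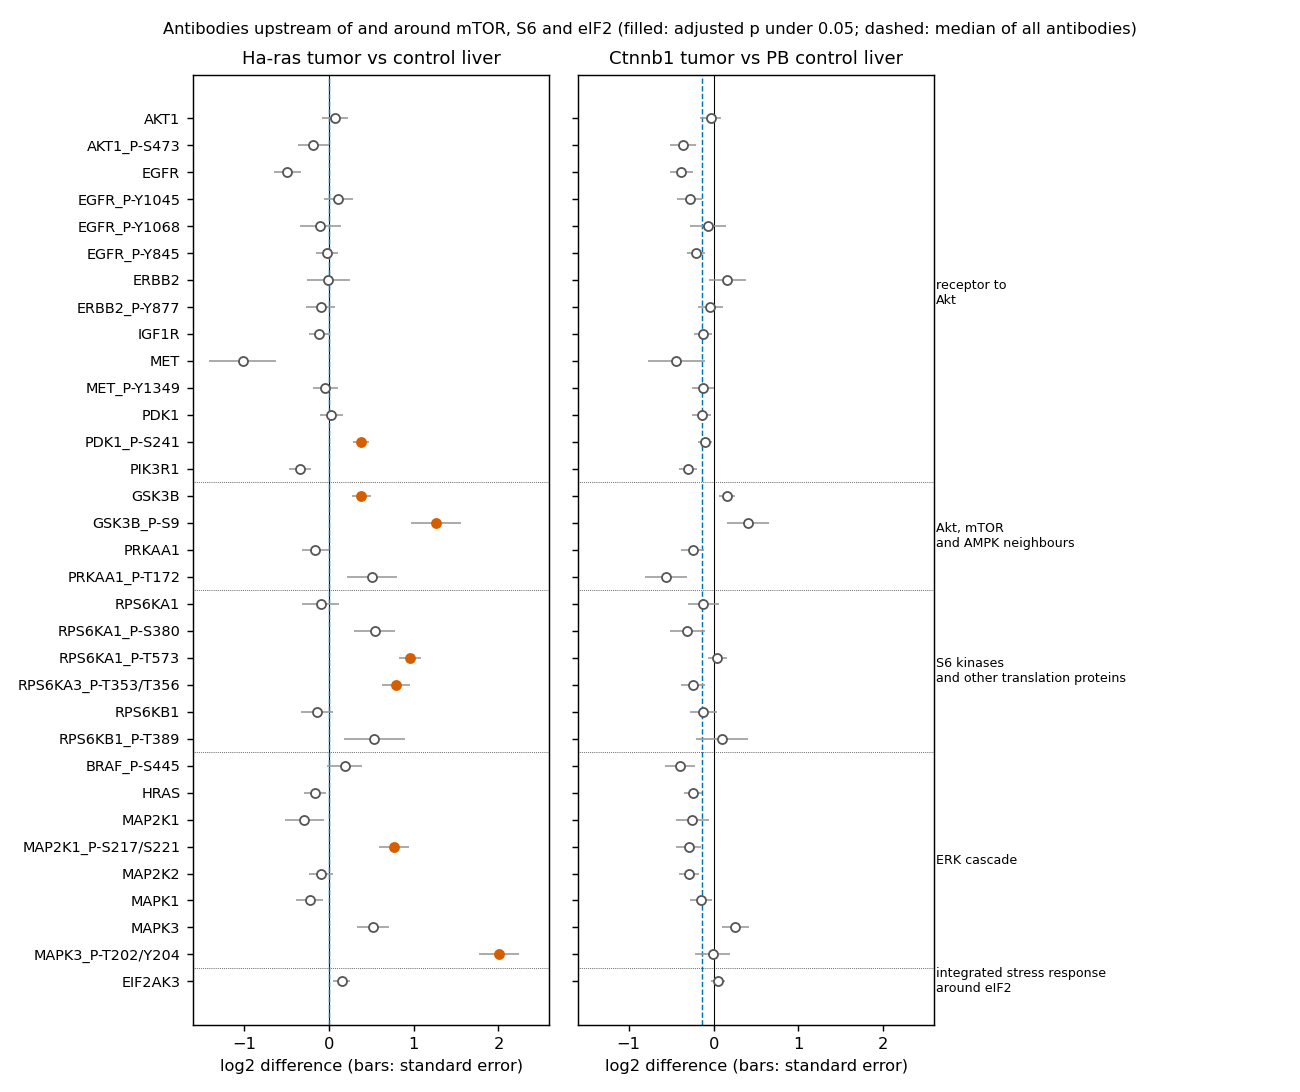
Log2 differences with standard errors for the 33 antibodies of the pathway lists, in Ha-ras tumors against control liver and Ctnnb1 tumors against PB control liver; filled points have an adjusted p under 0.05 and the dashed line marks the median of all antibodies (-0.00 and -0.14). The filled points, 7 in all, are in the Ha-ras comparison, led by MAPK3_P-T202/Y204 at 2.01.

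Across the 16 samples, the antibodies whose pattern was most like that of a member by Pearson's r were the following, given as descriptions of values read on the same lysates and partly set by the difference between groups. MTOR_P-S2448 was most like MAPK3_P-T202/Y204 (r = 0.90, and 0.53 for deviations from the group means) and GSK3B_P-S9 (0.89 and 0.66). EIF2A was also most like MAPK3_P-T202/Y204 (0.79 and 0.40). Total MTOR was most like BAX (0.83 and 0.77) and total MAPK3 (0.80 and 0.81), and MTOR_P-S2481 most like BRAF_P-S445 (0.75 and 0.82). Phosphorylated S6 was most like PPP2CB_P-Y307, on a catalytic subunit of the phosphatase PP2A (0.67 and 0.70). Its r with MTOR_P-S2448 was 0.35, and 0.15 for deviations from the group means. With RPS6_1 the values were -0.04 and 0.18. The S51 row was most like MAP3K7_P-S412 (0.79 and 0.79) and ran against total EIF2A (-0.34 and -0.57). It was dim in 15 of 16 samples, so these values describe mostly signal near the blank.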

How the data were processed

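Intensity values (relative fluorescence) for 183 rows per sample, which are 158 antibodies, 19 blanks and 6 Alexa647 reference rows, were taken as the authors deposited them. Whether the values were scaled earlier is not stated in the labels or files. The labels' protocols describe milled frozen tissue and a denaturing lysis buffer at 8-fold excess. The authors' deposited log2 value table, centred on each arm's own controls, was an alternative. Blanks were matched to antibodies through that table (145 of 158 matched with a blank, within 0.01 log2 in at least 12 samples; all 8 members in 16 of 16).

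Intensities were log2 transformed and centred per sample on the median of the 155 antibodies positive throughout; the 3 non-positive values, none in a member, were treated as missing. Comparisons were contrasts of a single limma model with a mean for each of the 4 groups (version 3.58.1 in R 4.3.3, with 12 degrees of freedom from residuals and 2.66 from the prior), two-sided, with Benjamini-Hochberg adjustment over 158 antibodies (or 46 pairs) and a threshold of 0.05. The fit was also run on simulated data with independent noise for each antibody, which does not test errors that a sample's antibodies share. Every member was named, from each list up to 4 called rows per comparison with the smallest p, antibodies among the 2 most like each member (some are left out of the text) and marker rows. RPS6KB1 and its T389 row, AKT1_P-S473, EIF2AK3 and the P450 marker rows were chosen after their values were seen. Some proteins of the pathway lists are not reported here. The members and lists were chosen with earlier results of these data known. Alternatives were other scalings (Alexa647 rows, none, quantile), blanks subtracted, dim antibodies left out, the authors' table, 2 groups alone, the replicate number as a block and each sample left out.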

Additional observations from a re-analysis of the deposited data

Results flagged for a closer look

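In the 7 Ctnnb1 tumors, 15 member signals and ratios were examined for a sample far from the others, and 2 had one past Dixon's 95% limit, where chance gives about 5%. The ratio of MTOR_P-S2448 to MTOR_P-S2481 was 3.44 in Ctnnb1 tumor 7 against 1.85 to 2.23 in the other 6, and that tumor had the highest S2448 and the lowest S2481 signal of the 7. The ratio of RPS6_2 to RPS6_1 was 0.0151 in Ctnnb1 tumor 4 against 0.0235 to 0.0313 in the other 6, and RPS6_2 was dim in that tumor (1.59 times its blank), as in 2 of the other 6.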

How the results depend on the processing

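The 65 member differences were recomputed under 1019 alternatives. Signs were compared after rounding to 2 decimals, so a value that rounds to 0 counted as kept. An example is S51 in Ha-ras tumors against control liver, at -0.0004 with 1 sample left out. In 946 the sign and the side of the threshold were kept by this rule, and in 57 the sign changed (none past the threshold before or after). In 9 a difference newly passed and in 7 a call was lost. The cause was not tested. Samples share replicate numbers across groups. Same-numbered deviations correlated at 0.61, 0.09 and 0.01 in the Ha-ras arm and 0.10, 0.13 and 0.23 in the PB arm. Different-numbered ones ran from -0.50 to 0.38 and from -0.30 to 0.29. Deviations from the means of such small groups depend on each other, so these values cannot settle whether equal numbers mark pairs. Scaling to Alexa647 rows moved the median difference of all antibodies by 0.15 to 0.21 in the group comparisons, and the split of higher against lower calls from 16 and 6 to 20 and 4 (Ha-ras against control) and from 9 and 21 to 10 and 10 between tumor types, where no scaling gave 19 and 9. For the difference of tumor effects, with 1 higher and 7 lower, quantile normalization gave 3 and 3, blank subtraction 2 and 4, and the authors' values 0 and 3. Limits are 3 samples in 3 of the groups, dim S51 and RPS6_2, and PB confounded with genotype.

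For Ha-ras tumors against control liver, MTOR passed with Alexa647 scaling (0.58) and in the authors' table (0.61), S2448 over MTOR with quantile normalization (0.47), and phosphorylated S6 over RPS6_1 (1.54) and RPS6_2 (1.45) in the groups alone and with the replicate block (adjusted p = 0.0011 and 0.00541). Leaving out 1 sample gave 1 to 2 member calls and 0.50 to 0.70 for EIF2A. The pair calls, 4 in the fit reported, were 9 with quantile normalization, 7 without dim antibodies, 7 in the groups alone, 12 with the replicate block and 2 to 5 with 1 sample left out.

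For Ctnnb1 tumors against PB control liver the sign changed as follows. With Alexa647 scaling S51 was 0.0715, MTOR 0.19, S2481 0.0924, RPS6_1 0.055 and RPS6_2 0.17, and with no scaling MTOR was 0.0737 and RPS6_2 0.0577. With quantile normalization S51 was 0.0371, S2481 0.0471, RPS6_2 0.13 and S2481 over MTOR 0.0743. With blanks subtracted S51 was 0.34, MTOR 0.0082 and RPS6_2 0.11. In the authors' values S51 was 0.54, MTOR 0.20, S2481 0.16, RPS6_1 0.0482 and RPS6_2 0.30. With the replicate block, which uses tumors 4 to 6, MTOR was 0.10, phosphorylated S6 -0.0785 and its ratio to RPS6_1 -0.0474. Leaving out 1 sample gave -0.15 to 0.0834 for MTOR, -0.27 to 0.053 for RPS6_1 and -0.16 to 0.10 for RPS6_2. The single pair call became 0 with quantile normalization, in the authors' table, in the groups alone and with the replicate block, and 0 to 1 with 1 sample left out.

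For PB control liver against control liver, no scaling gave EIF2A 0.0072, S2448 0.0305, S2481 0.19, RPS6_1 0.0402 and RPS6_2 0.0052, and Alexa647 scaling S2481 0.13. Leaving out 1 sample gave -0.067 to 0.0643 for S2481, -0.0289 to 0.53 for phosphorylated S6 and 0 to 1 pair calls. The antibody calls, 3 before, were 5 with no scaling and 8 in the groups alone.

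Between the tumor types, the EIF2A call was lost with Alexa647 scaling (-0.33) and no scaling (-0.24), each leaving 1 member call, and S2448 over MTOR was lost in the groups alone (-0.54). S51 was 0.12 with Alexa647 scaling, 0.22 with no scaling, 0.0672 with quantile normalization and 0.0331 with blanks subtracted, MTOR 0.0072 and S2481 0.0386 with no scaling, and phosphorylated S6 0.0212 and 0.11 with Alexa647 and no scaling. Leaving out 1 sample gave -0.60 to -0.40 for EIF2A, -0.13 to 0.0468 for S51, -0.14 to 0.44 for RPS6_1, -0.046 to 0.41 for RPS6_2, -0.42 to 0.11 for phosphorylated S6, -0.60 to -0.47 for S2448 over MTOR, -0.0143 to 0.11 for S2481 over MTOR, 1 to 2 member calls and 3 to 11 pair calls, which were 9 before and 4 in the groups alone. For the difference of tumor effects, the 8 antibody calls were 3 with Alexa647 scaling and 3 in the authors' table, and the 2 pair calls were 4 with the replicate block, in which phosphorylated S6 over RPS6_1 (-1.59) and RPS6_2 (-1.43) passed, and 1 to 2 with 1 sample left out, where S51 over EIF2A was -0.0821 to 0.26.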
